A study of Mus musculus with 3 samples.

Results

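The enzymes that split glucose to pyruvate and that oxidise pyruvate in the citric acid cycle were followed in cultured mouse aortic endothelial cells exposed to an oxidant. Members were chosen by gene symbol from a list of 41 enzymes and regulators of glycolysis, the pyruvate dehydrogenase complex and the citric acid cycle. Of these, 37 symbols were matched, giving 38 gene entries among the 18287 listed genes, because 2 gene entries carry the name Aldoa. Aldoc, Eno2, Ldhb and Pdk4 were not matched and are not analysed here. RNA came from a purchased culture of aortic endothelial cells, with 3 groups of 1 library each. The control library came from cells labelled as control. The oxidase library came from cells given glucose oxidase at 5 mU/mL for 30 min; this enzyme oxidises glucose and releases hydrogen peroxide. The Et2HOBA library came from cells that received the same enzyme exposure and also ethyl-2-hydroxybenzylamine (Et2HOBA, 0.2 mM for 24 h), a scavenger of reactive dicarbonyls. Which exposure came first, the strain, the age of the animals and the number of cultures are not in the labels, and no library of cells given Et2HOBA without the enzyme was analysed here.

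Glycolysis converts glucose to pyruvate in the cytosol. Hexokinases trap glucose as glucose 6-phosphate, phosphofructokinase commits it to the pathway, and the lower enzymes recover ATP. Endothelial cells are known for drawing most of their ATP from glycolysis and for using Pfkfb3, which makes the activator of phosphofructokinase, to raise flux during sprouting. Pyruvate is reduced to lactate by lactate dehydrogenase or enters mitochondria, where the pyruvate dehydrogenase complex makes acetyl-CoA. Pyruvate dehydrogenase kinases switch that complex off by phosphorylation. The values reported are RNA levels and say nothing of flux.

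With 1 library per group there is no replicate check and no test between conditions, so the words higher and lower describe these libraries. Log2 ratios are those of normalized reads plus 10, on 1 scale for all 3 libraries, which understates the change of low genes. Folds are ratios of normalized reads without that addition, with exact binomial (Clopper-Pearson) 95% intervals that cover counting error only. The libraries held 35005089 to 40212212 reads over the listed genes, and counts for the oxidase library were derived from deposited log2 differences. In RNA from bulk cultures, fewer cells of a type and less RNA per cell cannot be told apart.

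The members divided by role. Most glycolytic enzymes and the 4 member subunits of the pyruvate dehydrogenase complex were higher than control in both treated libraries, the 3 member kinases of that complex were lower, and the citric acid cycle enzymes other than Mdh1 lay within 0.5 log2 unit of control. The 15 glycolytic entries took 0.793% of all reads in control (95% interval 0.790 to 0.795), 1.05% in the oxidase library (1.04 to 1.05) and 1.15% in the Et2HOBA library (1.14 to 1.15). The 13 citric acid cycle genes took 0.234% (0.232 to 0.235), 0.211% (0.209 to 0.212) and 0.196% (0.195 to 0.198) in the same order. Summed normalized reads of the glycolytic entries were 1.38-fold those of control in the oxidase library and 1.60-fold in the Et2HOBA library. Over all listed genes such sums were 1.04-fold and 1.11-fold those of control. The sums over the citric acid cycle genes were 0.938-fold and 0.932-fold those of control. Without Mdh1, a subset chosen after its value was seen, they were 0.959-fold and 0.970-fold.

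Past 1 log2 unit from control, 4 of 38 entries (10.5%) were higher and 0 lower in the oxidase library, where 4.07% of all listed genes were higher and 8.60% lower. In the Et2HOBA library 5 were higher and 5 lower (26.3% together), where 6.66% of all listed genes were higher and 8.04% lower. Among 9856 protein-coding genes with at least the mean reads of Pdk3, the member with the fewest reads apart from the second Aldoa entry, 6.83% and 13.6% passed in either direction.

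At a limit of 0.5 log2 unit, 7 entries were higher and 4 lower in the oxidase library (28.9% together), beside 13.5% and 20.3% of all listed genes. In the Et2HOBA library 12 were higher and 7 lower, 19 of 38 together, beside 19.2% and 20.9%. Of the abundant protein-coding genes, 20.5% and 35.5% passed in either direction. The median over the 38 entries was 0.03 and 0.14, against -0.01 and 0.00 for all listed genes. For the abundant protein-coding genes it was 0.05 and 0.04, so the member median was not above theirs in the oxidase library. Under total-count scaling the member medians were -0.03 and -0.01. The role groups differed in direction. Both comparisons use the same control library.

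**Figure D1:**
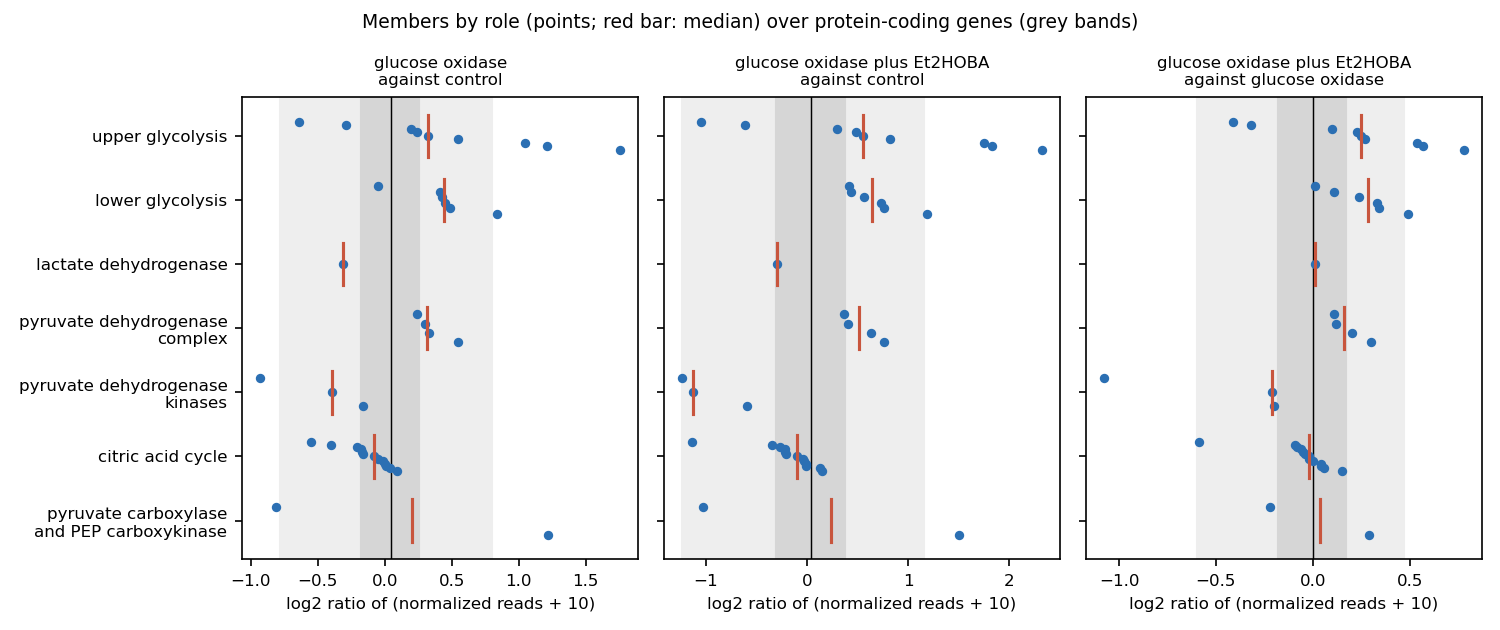
Log2 ratio of normalized reads plus 10 for each member (points), by role, in the 3 comparisons between libraries; red bars are group medians, and the grey bands span the middle 50% and 90% of protein-coding genes with at least the mean reads of Pdk3, with their median as a black line. Glycolysis and the pyruvate dehydrogenase complex have medians of 0.31 to 0.65 against control, whereas the kinases lie below 0 and most citric acid cycle genes lie near 0.

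Per kilobase of exon, Aldoa, Gapdh, Pgk1 and Pkm were the most abundant members in every library, at 11094 to 15247 normalized reads per kilobase in control. On this scale Pgk1 stood below Aldoa and Gapdh in control at 12650. It stood above both in the treated libraries, at 22692 in the oxidase library and 28818 in the Et2HOBA library. All citric acid cycle genes were below these 4 on this scale, spanning 381 (Idh2) to 4406 (Mdh2) in control. Per kilobase, the least abundant members of control, the second Aldoa entry aside, were Pfkp at 53.7, Pdk3 at 125, Hk2 at 135 and Pck2 at 175. These orders depend on lengths taken over all annotated exons, at 4133 bases for Gapdh, 2911 for Aldoa, 2244 for Pgk1 and 13401 for Pfkp. Before division by length, Pgk1 stood below Aldoa and Gapdh in every library. In the oxidase library these 3 had 50921, 65101 and 87365 normalized reads. In control, Pfkp had 719 and Pdk3 had 321.

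**Figure D2:**
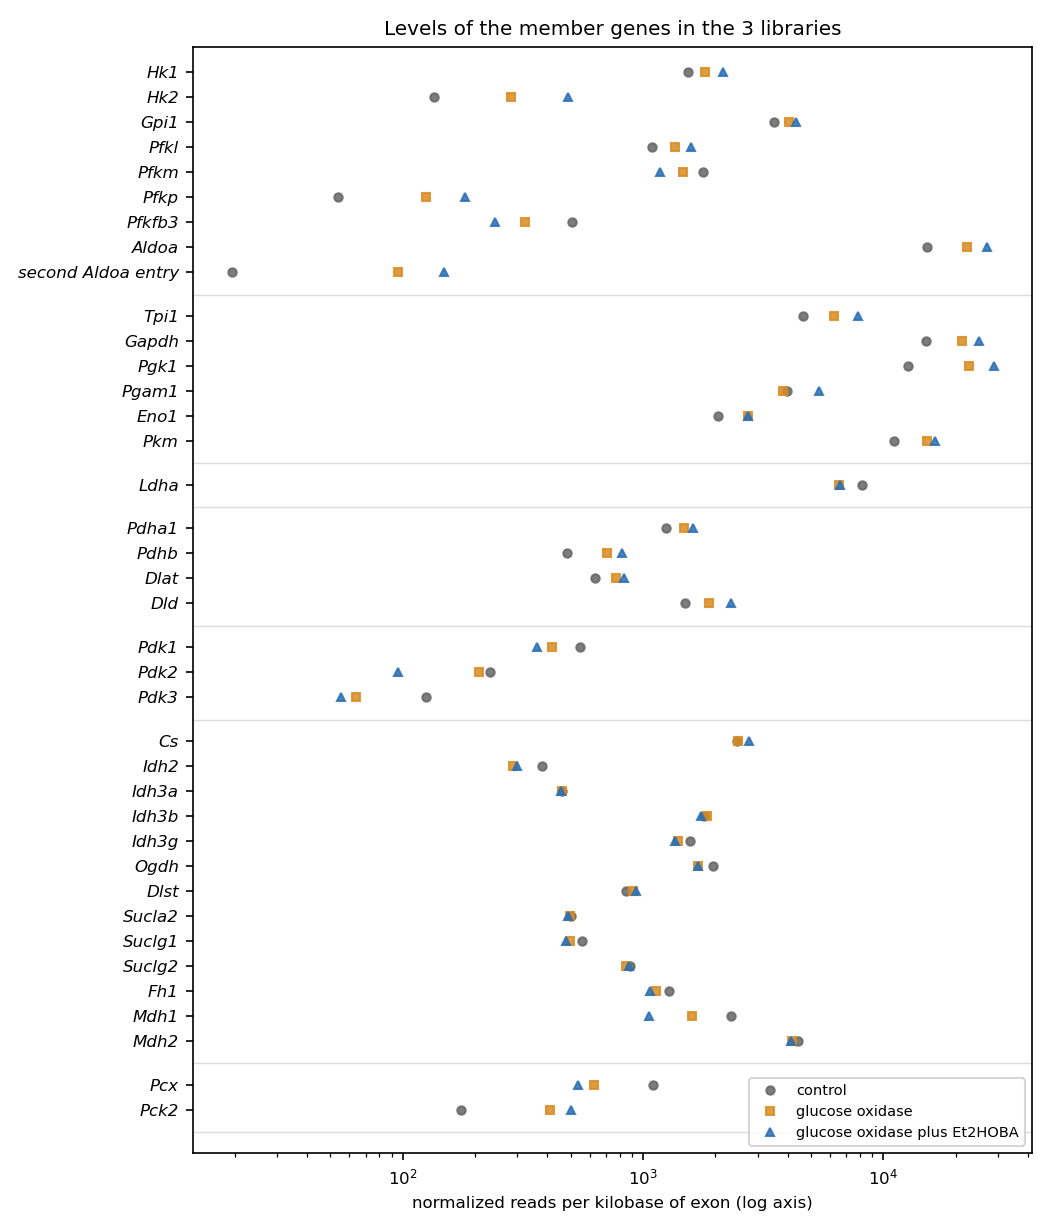
Normalized reads per kilobase of exon (log axis) for the members, by role, in the control (circles), oxidase (squares) and Et2HOBA (triangles) libraries. Pgk1 runs from 12650 to 28818 and Mdh1 from 2328 down to 1058, while the symbols of most citric acid cycle genes overlap.

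In upper glycolysis the largest ratios, the second Aldoa entry aside, were those of 2 less abundant isozymes. Hk2 (ENSMUSG00000000628.10, chromosome 6, 82725025 to 82774454), the inducible hexokinase that binds mitochondria, had 832 reads in control, 1627 in the oxidase library and 3012 in the Et2HOBA library. This was 2.09-fold control in the oxidase library (1.92 to 2.28) and 3.60-fold in the Et2HOBA library (3.33 to 3.89). Pfkp (ENSMUSG00000021196.14, chromosome 13, 6579768 to 6648777), the platelet-type phosphofructokinase, had 742, 1615 and 2528 reads, or 2.33-fold (2.13 to 2.54) and 3.39-fold (3.12 to 3.68). Both genes stood lowest in control and highest in the Et2HOBA library, and no counting interval of these folds included 1.

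The common isozymes differed less. Hk1, the main hexokinase here, had 13510, 14902 and 19065 reads, with log2 ratios of 0.24 and 0.49 against control. Pfkl, the liver-type phosphofructokinase, had 7471, 8742 and 11007 reads, with ratios of 0.32 and 0.55. Pfkm, the muscle-type gene, ran the other way, with 6150, 4712 and 4061 reads and folds of 0.819 (0.788 to 0.851) and 0.656 (0.630 to 0.683). Gpi1, which turns glucose 6-phosphate into fructose 6-phosphate, had the smallest ratios of the higher genes of upper glycolysis, at 0.20 and 0.30. Aldoa, the aldolase that cleaves the phosphorylated hexose, had 45803, 62846 and 81669 reads, or 1.47-fold (1.45 to 1.48) and 1.77-fold (1.75 to 1.79).

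The regulator Pfkfb3 (ENSMUSG00000026773.19, chromosome 2, 11471433 to 11554077) was lower while most enzymes of the pathway were higher. It had 3948 reads in control, 2362 in the oxidase library and 1908 in the Et2HOBA library. The folds were 0.640 (0.608 to 0.673) and 0.480 (0.454 to 0.507). Of the 9 upper glycolysis entries, 7 lay above 0 in each comparison with control, and Pfkm and Pfkfb3 lay below 0.

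A second gene entry named Aldoa (ENSMUSG00000114515.2, chromosome 7, 126800790 to 126809108) lies just upstream of the main gene (ENSMUSG00000030695.16, chromosome 7, 126795234 to 126800751) on the same strand. It held 16, 74 and 123 reads, so its folds of 4.94 (2.85 to 9.10) and 7.64 (4.52 to 13.8) rest on few reads. It is 1 of the entries counted as past 1 log2 unit in both comparisons with control, and without it these counts were 3 and 9.

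**Figure D3:**
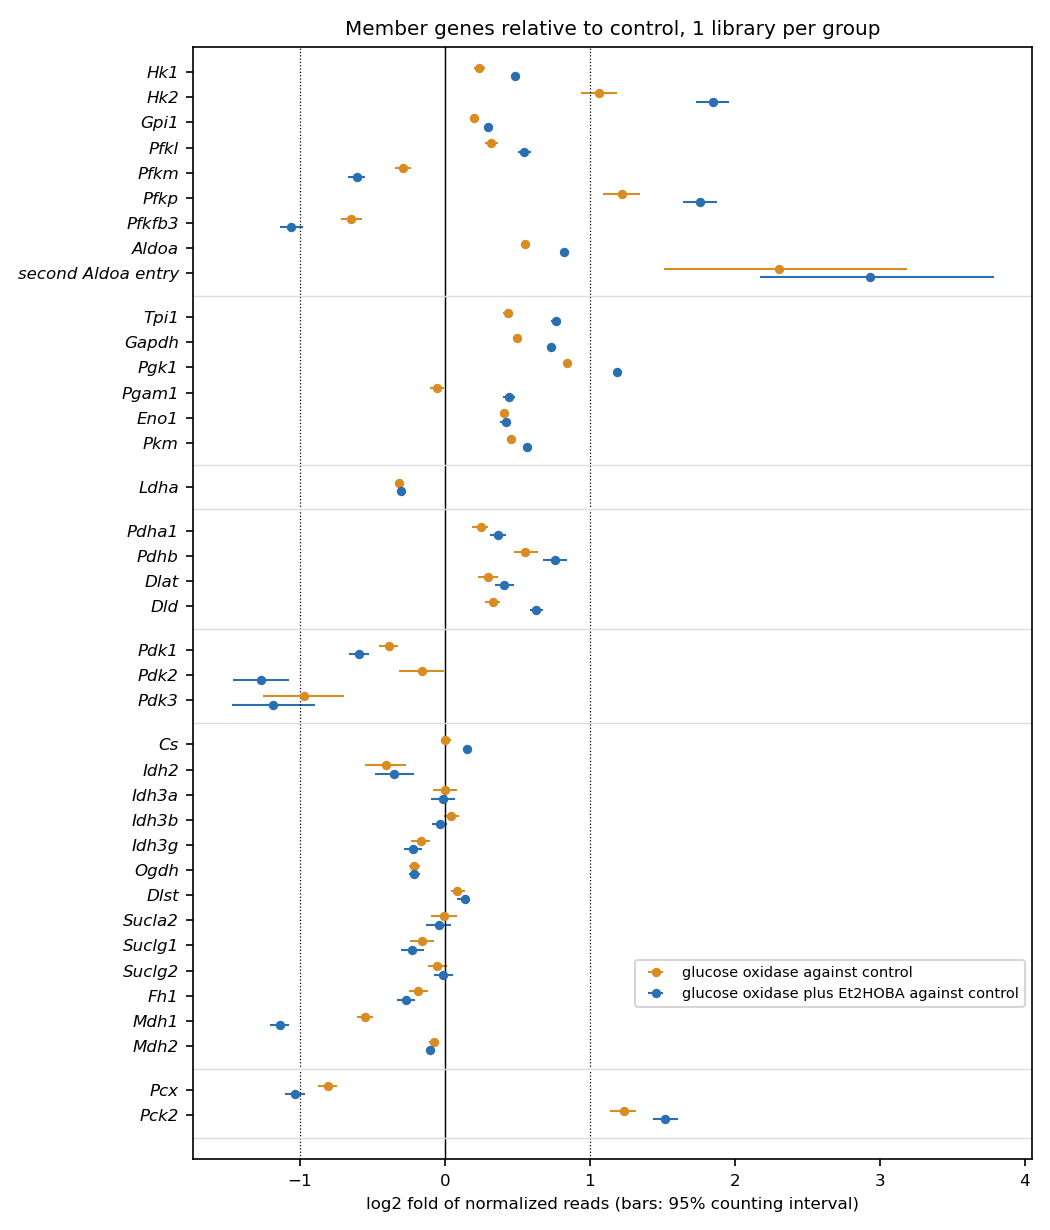
Log2 fold of normalized reads against control for each member in the oxidase (orange) and Et2HOBA (blue) libraries, with 95% counting intervals; dotted lines mark 1 log2 unit. Hk2, Pfkp, Pgk1, Pck2 and the second Aldoa entry pass the right-hand line in the Et2HOBA library, and Pfkfb3, Pdk2, Pdk3, Mdh1 and Pcx pass the left-hand one.

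The make-up of the isozyme families differed between the libraries; these families were chosen after their values were seen. Hk2 supplied 5.80% of the reads of Hk1 and Hk2 in control (95% interval 5.42 to 6.20), 9.84% in the oxidase library (9.39 to 10.3) and 13.6% in the Et2HOBA library (13.2 to 14.1). For phosphofructokinase, Pfkm supplied 42.8% of family reads in control (42.0 to 43.6), 31.3% in the oxidase library (30.5 to 32.0) and 23.1% in the Et2HOBA library (22.5 to 23.7). Pfkp went from 5.17% (4.81 to 5.54) to 10.7% (10.2 to 11.2) and 14.4% (13.9 to 14.9), and Pfkl from 52.0% to 58.0% and 62.6%. The summed reads of the phosphofructokinase genes differed less than these shares, at 1.12-fold control (1.10 to 1.15) and 1.22-fold (1.19 to 1.24). Shares of reads are not corrected for length. Per kilobase of all annotated exons, Pfkm was the largest at 61.1% in control. It was second to Pfkl in the Et2HOBA library, at 39.8% against 54.0%. These lengths were 3340 bases for Pfkm, 6675 for Pfkl and 13401 for Pfkp. They may differ from those of the transcripts present, so the order of the isozymes per kilobase depends on this choice.

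**Figure D4:**
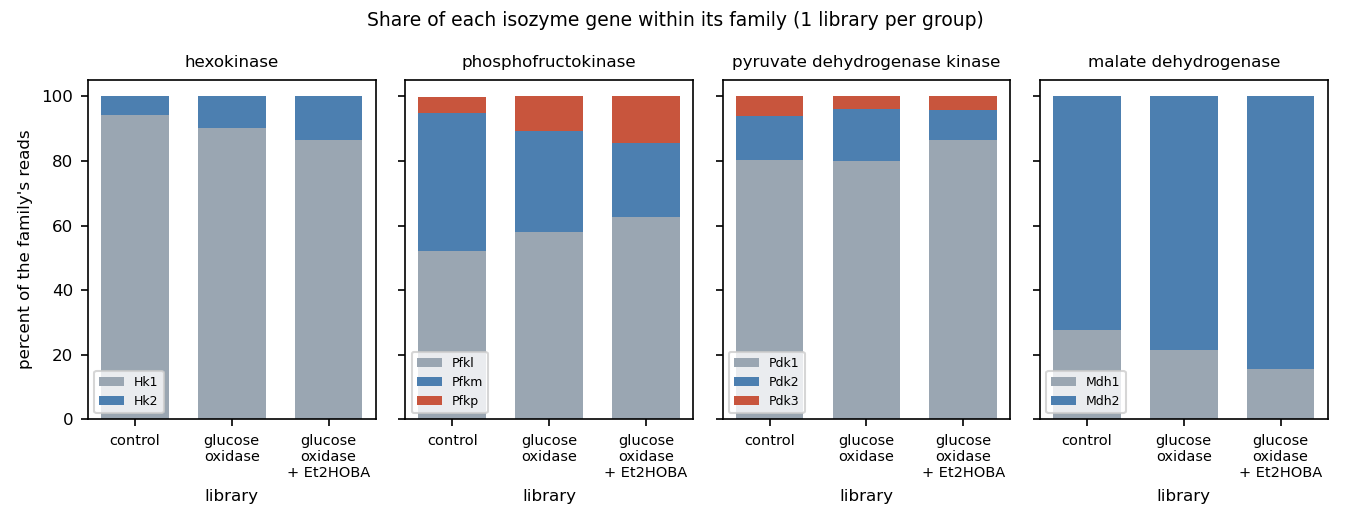
Percent of a family's reads from each isozyme gene in the 3 libraries, for hexokinase, phosphofructokinase, pyruvate dehydrogenase kinase and malate dehydrogenase. The Pfkm share is 42.8%, 31.3% and 23.1% and the Mdh1 share 27.6%, 21.5% and 15.6% from control to the Et2HOBA library.

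Of the 6 listed genes of lower glycolysis, 5 were above control in the oxidase library and 6 in the Et2HOBA library, with medians of 0.44 and 0.65. Pgk1 (ENSMUSG00000062070.12, chromosome X, 106187100 to 106203699), which makes the first ATP of the pathway, had 29294, 49157 and 67164 reads. Its folds were 1.79 (1.77 to 1.82) and 2.28 (2.25 to 2.31), and it was the only gene of lower glycolysis past 1 log2 unit, in the Et2HOBA library. Gapdh, often used as a reference gene in measurements by PCR, had 64044, 84339 and 107010 reads, or 1.41-fold (1.39 to 1.42) and 1.66-fold (1.64 to 1.68). Tpi1, which interconverts the triose phosphates, had ratios of 0.43 and 0.76. Pkm, pyruvate kinase, had 57258, 73135 and 85140 reads and ratios of 0.45 and 0.56; the counts do not separate its splice forms.

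Eno1, enolase, had 11363, 14134 and 15291 reads, and its ratios of 0.41 and 0.42 were alike in both treated libraries. Pgam1, phosphoglycerate mutase, was the exception, with 8139 reads in control, 7338 in the oxidase library and 11108 in the Et2HOBA library. Its folds were 0.964 (0.934 to 0.995) and 1.36 (1.32 to 1.40). It stood slightly below control in the oxidase library and above it in the Et2HOBA library. Ldha, the lactate dehydrogenase subunit that favours lactate formation, was lower in both treated libraries, with 27727, 20869 and 22647 reads. Its folds were 0.805 (0.790 to 0.819) and 0.812 (0.797 to 0.826), and it did not follow the rest of lower glycolysis.

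The 4 member genes of the pyruvate dehydrogenase complex were above control, and the 3 member kinases below it. Pdhb, a subunit of the decarboxylase, had 1920 reads in control, 2640 in the oxidase library and 3270 in the Et2HOBA library, or 1.47-fold (1.39 to 1.56) and 1.69-fold (1.60 to 1.79). Dld, the dehydrogenase subunit that other complexes share, had 5666, 6665 and 8842 reads, with ratios of 0.33 and 0.63. Pdha1, the regulated subunit that the kinases phosphorylate, had ratios of 0.24 and 0.37, and Dlat, the acetyl-transferring core, had 0.30 and 0.41. All 4 lay above 0 in every comparison, with medians of 0.31 and 0.52 against control. Pdhx, a further subunit that is not a member, stood at 0.01 and -0.05.

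The kinases Pdk1, Pdk2 and Pdk3 were below control in both treated libraries, with medians of -0.39 and -1.13. Pdk2 (ENSMUSG00000038967.13, chromosome 11, 95026258 to 95041354) had 753, 631 and 315 reads, with folds of 0.896 (0.805 to 0.997) and 0.416 (0.363 to 0.475). It was near control in the oxidase library and low in the Et2HOBA library. Pdk3 (ENSMUSG00000035232.8, chromosome X, 93764607 to 93832201) had 331, 158 and 147 reads and was low in both treated libraries, at 0.510-fold (0.419 to 0.619) and 0.441-fold (0.361 to 0.537). Pdk1, the most abundant of the kinases, had 4383, 3136 and 2924 reads and ratios of -0.39 and -0.59. Summed, the kinase genes stood at 0.767-fold control (0.736 to 0.800) in the oxidase library and 0.615-fold (0.589 to 0.642) in the Et2HOBA library. Pdp2, a phosphatase that opposes the kinases and is not a member, was also lower, at 0.602-fold (0.528 to 0.687) and 0.568-fold (0.498 to 0.647), and the phosphatase Pdp1 stood at -0.13 and -0.16. In the authors' deposited table the difference of Pdk3 in the Et2HOBA library was -0.92, smaller in size than 1 log2 unit.

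The 13 citric acid cycle genes had medians of -0.08 and -0.10 against control, and 12 of them lay within 0.5 log2 unit in each comparison. Without Mdh1, a subset chosen after its value was seen, the range in the Et2HOBA library ran from -0.35 (Idh2) to 0.15 (Cs). Cs, citrate synthase, which joins acetyl-CoA to oxaloacetate, had 14727, 13841 and 16489 reads. Idh2, the NADP-dependent mitochondrial isocitrate dehydrogenase, had 1018, 718 and 804 reads and folds of 0.754 (0.684 to 0.830) and 0.785 (0.715 to 0.862). The NAD-dependent isocitrate dehydrogenase genes Idh3a, Idh3b and Idh3g spanned ratios of -0.22 to 0.04 over both comparisons. Ogdh, of the oxoglutarate dehydrogenase complex, stood at -0.21 in both, and its partner Dlst, the highest of the group in the oxidase library, at 0.09 and 0.13. The succinyl-CoA ligase genes Sucla2, Suclg1 and Suclg2 lay between -0.22 and -0.01, fumarase (Fh1) at -0.18 and -0.27, and Mdh2 at -0.08 and -0.10.

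Mdh1 (ENSMUSG00000020321.16, chromosome 11, 21556692 to 21572367), the cytosolic malate dehydrogenase of the malate-aspartate shuttle, stood apart from the mitochondrial enzymes. It had 6168 reads in control, 3942 in the oxidase library and 2820 in the Et2HOBA library, with folds of 0.683 (0.656 to 0.711) and 0.454 (0.434 to 0.475). Its share of the reads of both malate dehydrogenase genes was 27.6% (27.0 to 28.2), 21.5% (20.9 to 22.1) and 15.6% (15.1 to 16.2).

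The enzymes that pass carbon between pyruvate, oxaloacetate and phosphoenolpyruvate differed in opposite directions. Pcx (ENSMUSG00000024892.17, chromosome 19, 4510472 to 4621752), pyruvate carboxylase, which refills the cycle with oxaloacetate, had 5377, 2870 and 2642 reads. Its folds were 0.571 (0.545 to 0.597) and 0.488 (0.466 to 0.512). Pck2 (ENSMUSG00000040618.7, chromosome 14, 55540266 to 55551242), the mitochondrial phosphoenolpyruvate carboxykinase and a known target of the stress factor ATF4, had 1407, 3089 and 4063 reads. Its folds were 2.35 (2.20 to 2.50) and 2.87 (2.70 to 3.05). Pcx was thus low and Pck2 high in both treated libraries.

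The 250 bases before the annotated start are shown for the 4 members, the second Aldoa entry aside, that were past 1 log2 unit higher in a treated library, because these genes were high together (RefSeq, GRCm38.p6, gene strand, 5′ to 3′). Capitals mark matches on either strand to TGATGNAA, a form of the element bound by ATF4 with C/EBP partners, and to ACGTG or GCGTG, cores of the hypoxia response element. The windows are chr14:55540016-55540265 on the plus strand for Pck2, chr6:82774455-82774704 on the minus strand for Hk2, chr13:6648772-6649021 on the minus strand for Pfkp and chrX:106186850-106187099 on the plus strand for Pgk1.
Pck2: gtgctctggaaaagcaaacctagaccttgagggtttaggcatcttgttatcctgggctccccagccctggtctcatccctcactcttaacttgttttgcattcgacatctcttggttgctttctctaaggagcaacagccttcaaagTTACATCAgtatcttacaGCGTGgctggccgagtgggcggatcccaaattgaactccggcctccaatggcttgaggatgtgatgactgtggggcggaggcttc
Hk2: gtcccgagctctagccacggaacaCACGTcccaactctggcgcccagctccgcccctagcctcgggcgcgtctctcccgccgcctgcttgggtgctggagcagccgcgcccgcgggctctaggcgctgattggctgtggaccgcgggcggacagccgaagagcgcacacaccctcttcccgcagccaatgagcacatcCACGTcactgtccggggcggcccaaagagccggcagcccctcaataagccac
Pfkp: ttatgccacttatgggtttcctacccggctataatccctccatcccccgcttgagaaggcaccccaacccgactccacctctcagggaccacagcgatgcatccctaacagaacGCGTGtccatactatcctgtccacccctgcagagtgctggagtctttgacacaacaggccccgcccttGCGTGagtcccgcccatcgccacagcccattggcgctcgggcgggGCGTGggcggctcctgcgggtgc
Pgk1: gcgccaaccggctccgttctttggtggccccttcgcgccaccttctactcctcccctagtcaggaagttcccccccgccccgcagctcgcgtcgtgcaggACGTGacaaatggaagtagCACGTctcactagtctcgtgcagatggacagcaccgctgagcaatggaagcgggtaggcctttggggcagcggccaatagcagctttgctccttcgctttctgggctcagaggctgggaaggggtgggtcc

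Pck2 was the only 1 of the 36 members in the promoter table with a match to TGATGNAA, read on the opposite strand and beginning 103 bases before the start. The motif occurred in 3.45% of all 32851 promoter windows and in 2.06% of those of listed genes. The hypoxia core was common: 27 of the 36 members had at least 1 match, beside 53.1% of promoters of listed genes. The matching members included genes higher than control, such as Hk2, Pfkp and Pgk1, and lower ones, such as Pfkfb3, Pdk1 and Mdh1. The E-box CACGTG, which overlaps the core ACGTG, was found in 6 of the 36 members and in 7.97% of promoters of listed genes. The 6 were Ldha, Ogdh, Pcx, Pdk2, Pfkfb3 and Pfkm, all below control in both treated libraries. Of all 38 entries, 17 lay below control in the oxidase library and 18 in the Et2HOBA library. Whether the E-box goes with direction, among the members or other listed genes, was not tested. These matches describe letters in a window and are not binding sites.

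Between the treated libraries, several members were farther from control in the Et2HOBA library. Pdk2 alone of the 38 entries (2.63%) passed 1 log2 unit, at 0.464-fold (0.404 to 0.532), beside 6.39% of all listed genes higher, 2.15% lower and 2.10% of the abundant protein-coding genes in either direction. At 0.5 log2 unit 3 entries were higher (Hk2, Pfkp and the second Aldoa entry) and 2 lower (Mdh1 and Pdk2), or 13.2% together. Of all listed genes 13.6% were higher and 12.0% lower, together 4670 of 18287 and more than among the members. Of the 9856 abundant protein-coding genes 11.6% passed in either direction, near the members' share, with 418 higher and 723 lower. At 1 log2 unit, 56 of these coding genes were higher and 151 lower. Under total-count scaling, the split of the members at 0.5 log2 unit was 1 higher and 3 lower. Hk2 was 1.72-fold (1.62 to 1.83) and Mdh1 0.665-fold (0.633 to 0.698) of the level without Et2HOBA. The 15 glycolytic entries had a median of 0.25 and 13 of them lay above 0. Eno1 at 1.01-fold (0.983 to 1.03) and Ldha at 1.01-fold (0.990 to 1.03) had intervals that include 1, and under total-count scaling their ratios were -0.09 and -0.08. The citric acid cycle had a median of -0.02, which was 0.01 with size factors from protein-coding genes that share no sequence with another gene.

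Other genes of carbon metabolism were taken from lists beside the members. Of 23 further glycolytic isozymes and regulators 17 were matched, and in the Et2HOBA library 0 were higher and 3 lower past 1 log2 unit. The lower ones were Fbp2 with 522, 147 and 76 reads, Fbp1 with 1182, 751 and 451, and Pgm2l1 with 9605, 6130 and 3585. Fbp1 and Fbp2 are fructose bisphosphatases, which run the phosphofructokinase step backwards; Fbp2 alone also passed the limit in the oxidase library, at -1.67. Of 15 transporters of sugar, lactate and pyruvate 10 were matched. Slc2a1, the main endothelial glucose transporter, had 2504, 7825 and 14196 reads and ratios of 1.74 and 2.49. Slc2a6, a lysosomal member of the same family, had 289, 63 and 18 reads and ratios of -1.95 and -3.41, and the mitochondrial dicarboxylate carrier Slc25a10 had -0.85 and -1.20. The lactate exporter Slc16a1 (-0.12 and 0.09) and the pyruvate carriers Mpc1 (-0.12 and -0.31) and Mpc2 (-0.09 and -0.22) lay near control.

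All 11 genes of the pentose phosphate branch were matched, with a median of 0.36 in each comparison with control. Taldo1, transaldolase, had 6630, 18544 and 26775 reads and was the only 1 past 1 log2 unit, at 1.58 and 2.00. Pgd had ratios of 0.87 and 0.90, whereas G6pdx, the entry enzyme, had 0.44 and 0.13. Of 24 other pyruvate dehydrogenase and citric acid cycle genes 22 were matched, with medians of -0.12 and -0.19. Got1, the cytosolic aspartate aminotransferase that works with Mdh1 in the malate-aspartate shuttle, had 3896, 7581 and 11402 reads and ratios of 1.05 and 1.54. Me3, a mitochondrial malic enzyme, had 16, 2 and 9 reads, with folds of 0.134 (0.0149 to 0.568) and 0.559 (0.218 to 1.34) that rest on few reads. In the Et2HOBA library 1 gene of this list was higher and 4 lower past 0.5 log2 unit. The lower ones were Ogdhl (-0.90), Idh1, the cytosolic isocitrate dehydrogenase (-0.81), Pdp2 (-0.80) and the succinate dehydrogenase subunit Sdhd (-0.51). The other subunits Sdha (-0.26 and -0.42), Sdhb (0.15 and 0.18) and Sdhc (-0.06 and -0.09) lay within that limit.

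Glycolytic genes have many processed pseudogenes, intronless copies that can draw reads from the parent gene. At least 1 stretch of 50 bases was shared between 12 members and 105 listed processed pseudogenes, 72 of them with Gapdh. These pseudogenes held 6096 reads in control, 2418 in the oxidase library and 8506 in the Et2HOBA library. Low counts of pseudogenes were not limited to these copies: all processed pseudogenes together took 0.718% of reads in control, 0.389% in the oxidase library and 0.751% in the Et2HOBA library. Genes at 0 reads numbered 131, 464 and 218 of those listed, so the oxidase library stood apart from the others. The backgrounds over all listed genes include such genes, both for lower genes against control and for higher genes between the treated libraries. In control the copies took 2.79% of the summed reads for Gapdh, 2.78% for Pkm and 18.7% for Eno1, whose copies include the coding gene Eno1b. Adding the copies to each member moved its ratio by at most 0.05 log2 unit. This sum cannot restore reads left uncounted because they match more than 1 gene, and the processing notes do not say how such reads were handled. Stretches found in another annotated gene made up 72.2% of the longest Eno1 transcript and 68.0% of that of Pgk1. The values were 41.5% for Pgam1, 34.4% for Pkm and 27.2% for Gapdh. The effect of this sharing on their folds and levels was not tested.

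**Figure D5:**
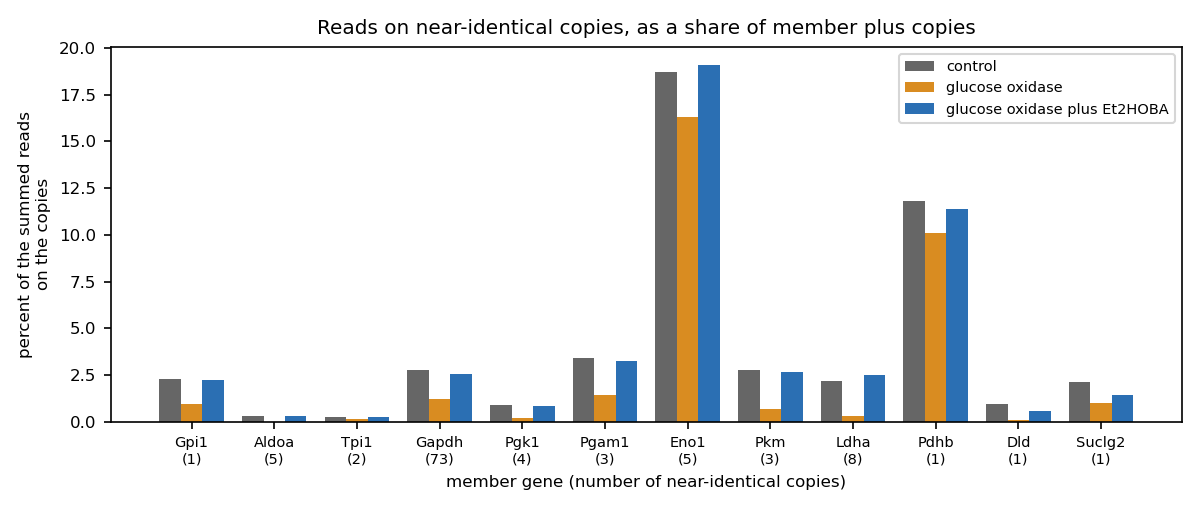
Reads on copies as a percent of the reads of member plus copies, for 12 members, in the control (grey), oxidase (orange) and Et2HOBA (blue) libraries. Copies are processed pseudogenes sharing at least 1 stretch of 50 bases with the member, or coding genes sharing at least 10% of their stretches. The number of copies is in brackets. The oxidase bar is the lowest for each gene, for example 1.19% for Gapdh against 2.79% in control.

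All 12 endothelial markers were matched, with summed normalized reads of 384057, 253822 and 232965 in the 3 libraries, and medians of -0.44 and -0.64 against control. Of the 12, 11 were below control in the oxidase library and 10 in the Et2HOBA library. Past 1 log2 unit, 3 and 5 of the markers were lower, beside 8.60% and 8.04% of all listed genes. The 5 were Tek at 0.247-fold control in the Et2HOBA library, Vwf at 0.267, Cldn5 at 0.302, Kdr at 0.391 and Erg at 0.451. Pecam1 had 37351, 26919 and 29562 reads, and Cdh5 had 55360, 45034 and 63665, so that Cdh5 and Emcn (0.55) were above control in the Et2HOBA library. Of 6 smooth muscle markers 5 were matched, at 3714 to 4856 summed normalized reads, nearly all from Smtn, with Acta2 at 8 to 18 reads, Tagln at 4 to 9 and Lmod1 at 1 to 6. Myh11 had 19, 35 and 73 reads, or 3.82-fold control in the Et2HOBA library (2.28 to 6.70). Of 5 fibroblast markers 3 were matched: Col1a1 had 23 to 30 reads, Col3a1 had 2, 12 and 0, and Pdgfra had 107, 1325 and 2821. Of 5 macrophage markers 3 were matched, with Cd68, a lysosomal protein of many cell types, at 8215, 17067 and 27799 reads, Csf1r at 6 to 12 and Lyz2 at 76 to 186. Of 5 adipocyte markers Plin1 (0 to 8 reads) and Fabp4 (679 to 1572 reads), which endothelial cells also express, were matched. The part of these differences in the values of the metabolic genes was not tested.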

How the data were processed

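Poly(A) RNA was made into stranded libraries, per the labels' protocols. The submitters' processing notes name STAR, featureCounts and mm10, without roles or settings. The authors deposited raw read counts for control and glucose oxidase plus Et2HOBA, log2-scale normalized values of both and their log2 difference, per the file headers. For glucose oxidase against control the authors deposited log2 differences only.

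Counts for the oxidase library were solved from these differences. The form asinh(sqrt(k × count)), with a single k for each library, matched the deposited values, and inverting it gave whole numbers to within 0.01 for 100% of 18258 symbol-paired genes. With control counts raised by 1 read, the share was 3.3%. A further 29 genes with repeated or date-like names were placed by whole reads, both Aldoa entries among them; swapping those missed a whole number by at least 0.0344. The recovery and the ratios were also run on simulated counts whose differences were made with the same asinh form. That run could not test whether the form is right for the deposited values.

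Size factors were medians of ratios across the 3 libraries (control 1.03, oxidase 0.965, Et2HOBA 1.04), and 10 was added to normalized counts before log2 ratios were taken. With 1 library in each group, no count model was used. Gene IDs matched GENCODE M21 with the same version and position for 17878 genes. Exon lengths (the union of all exons) and shared stretches of 50 bases came from that release; pseudogene copies needed 1 shared stretch, and coding copies 10% of their own stretches. Alternatives were pseudocounts of 1 and 50, TMM factors (edgeR 4.0.16), total counts, size factors over unshared coding genes, the deposited differences, a filter at a mean of 50 reads, members summed with copies and members with no shared stretch. For these alternatives sharing was judged on the longest transcript of each gene, whereas copies were sought with all transcripts. Leaving out the second Aldoa entry, and the medians by role under each alternative, were added after seeing the data.

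The members and lists were chosen with earlier results of these data known. The rule for names covers all members by role, with values for those past 1 log2 unit in any comparison and the extremes of each role, and other listed genes beyond it, up to 6 in a list. Sdha to Sdhd, Pdhx, Pdp1, Pdp2, Idh1, Ogdhl, Slc16a1, Mpc1, Mpc2, Pgd and G6pdx were named after their values were seen, as were members given beyond the rule.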

Additional observations from a re-analysis of the deposited data

How the results depend on the processing

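No member past 1 log2 unit in the reported values changed sign under any alternative run. Total-count scaling moved the median of all genes by -0.13 in the Et2HOBA library against control and by -0.06 in the oxidase library; it changed the sign of 10 of 114 member values, none above 0.13 in size, and put the median over members between the treated libraries at -0.04. The count of members past 1 log2 unit in the oxidase library, 4 in the report, was 2 on the scale of the authors' deposited differences. Hk2 stood at 0.92 there and the second Aldoa entry at 0.66. That scale follows the asinh form inverted for the recovery, which departs from a log2 ratio most for genes with few reads. The abundant Aldoa (0.55) and Pgk1 (0.84) had the same values on both scales. With a pseudocount of 50, the count between the treated libraries was 0, with Pdk2 at -0.99, and Pdk3 in the Et2HOBA library against control stood at -0.95. Over the 22 entries whose longest transcript has no shared stretch, 6 and 10 passed 0.5 log2 unit in the oxidase library and in the Et2HOBA library. This compares with 11 and 19 of 38. The set is smaller and its make-up differs. It leaves out higher genes such as Aldoa, Gapdh, Pgk1 and Pkm, and lower ones such as Ldha and Pfkfb3. Its medians against control were -0.04 and -0.07, beside 0.03 and 0.14 over the 38 entries. The 22 include Dld, which has 1 pseudogene copy when all transcripts are searched. The deposited table between the treated libraries lists no member, so that alternative was not run there. Depth limits the second Aldoa entry most; the abundant enzymes have counting intervals of a few percent. No paired analysis was possible because each group has 1 library.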

Other observations

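Aldoart1 and Aldoart2 (aldolase A retrogenes) and the citrate synthase-like gene Csl, which are not members, had their lowest counts in the oxidase library. Aldoart1 and Csl were not among the copies counted above. The share of reads on all processed pseudogenes was also lowest in that library, at 0.389% against 0.718% in control and 0.751% in the Et2HOBA library. Aldoart1 had 130 reads in control, 23 in the oxidase library and 244 in the Et2HOBA library, and Aldoart2 had 44, 0 and 79. Csl had 57, 5 and 41 reads, whereas Cs itself had 14727, 13841 and 16489. Eno1b, a copy of Eno1, did not share this pattern, with 2259, 2699 and 3158 reads. These genes were chosen after their values were seen.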
